A study of Mus musculus with 8 samples.

Results

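The 8 genes described here encode C-type lectin receptors of macrophages, proteins that read sugars and glycolipids on microbes and on the body's own glycoproteins: Clec4e, Clec4d, Clec4n, Clec7a, Clec5a, Clec10a, Mgl2 and Mrc1. They were chosen by symbol and not by a rule on their values, though with earlier results of these data known. All 8 were found among 36806 genes. Poly(A) RNA was sequenced from bone marrow-derived macrophages of C57BL/6 mice, grown with medium conditioned by L929 cells (a fibroblast line that secretes the growth factor CSF1) and used on day 7 of differentiation. One culture had no treatment, and each of 7 received 1 agent for 4 h. These were IFNg (interferon gamma) at 100 ng/ml, the cytokines IL4 at 10 ng/ml, TNFa at 10 ng/ml, TGFb1 at 1 ng/ml and IL1b at 10 ng/ml, MALP2 (a lipopeptide of mycoplasma read by Tlr2) at 1 ng/ml, and CpG (unmethylated DNA read by Tlr9) at 100 nM. With 1 library a group, differences have no replicate check and no p-value was computed.

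The receptors work by different routes. Clec4e (Mincle), Clec4d (MCL) and Clec4n (Dectin-2) signal through the adaptor Fcer1g, Clec5a (MDL-1) through Tyrobp, and Clec7a (Dectin-1) through a tyrosine motif in its own tail. All of these recruit the kinase Syk, and the Card9, Bcl10 and Malt1 complex carries the signal on to NF-kB. Clec10a (Mgl1), Mgl2 and Mrc1 (the mannose receptor) are known mainly as endocytic receptors, for galactose-type sugars in the case of Clec10a and Mgl2 and for mannose in the case of Mrc1, which with Mgl2 is widely used as a marker of IL4-treated macrophages.

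Levels are FPKM, which scale fragment numbers to transcript length and library size and can be compared between genes. Each stimulus was deposited in a table of its own with the untreated library, and the untreated values of the 7 tables differed by 1 factor per table (0.961 to 1.06). Levels below were joined by that factor, while every change compares a stimulated and the untreated library within 1 table. A gene was counted as higher or lower when it reached 1 FPKM in one of the compared libraries and its log2 change, taken after adding 1 to both FPKM values, was 1 or more in size, which is 2-fold. Folds on this scale understate the change of genes of low FPKM. Brackets give the authors' confidence bounds on an FPKM within a library, whose level is not stated.

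Promoter sequences from RefSeq (GRCm38.p6, 250 bases before to 50 after a listed start, on the gene's strand) were found for 6 of the 8 genes and are shown for 4 with differing responses. The neighbours Clec4e (chr6:123289822-123290121, minus strand) and Clec4d (chr6:123261857-123262156, plus strand) are followed by Clec7a (chr6:129472730-129473029, minus strand) and Mrc1 (chr2:14229164-14229463, plus strand). Capitals mark every match to 7 motifs, described after the sequences.
Clec4e: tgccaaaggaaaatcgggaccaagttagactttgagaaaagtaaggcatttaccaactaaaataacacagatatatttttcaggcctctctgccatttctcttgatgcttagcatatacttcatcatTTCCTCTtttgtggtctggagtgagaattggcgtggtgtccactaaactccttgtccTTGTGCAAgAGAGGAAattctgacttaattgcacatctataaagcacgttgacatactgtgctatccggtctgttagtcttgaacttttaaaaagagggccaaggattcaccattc
Clec4d: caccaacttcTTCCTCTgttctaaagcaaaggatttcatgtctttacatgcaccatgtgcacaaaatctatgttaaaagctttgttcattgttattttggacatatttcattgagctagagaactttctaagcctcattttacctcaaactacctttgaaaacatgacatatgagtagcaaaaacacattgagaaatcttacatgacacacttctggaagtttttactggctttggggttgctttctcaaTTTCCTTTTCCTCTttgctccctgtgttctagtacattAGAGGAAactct
Clec7a: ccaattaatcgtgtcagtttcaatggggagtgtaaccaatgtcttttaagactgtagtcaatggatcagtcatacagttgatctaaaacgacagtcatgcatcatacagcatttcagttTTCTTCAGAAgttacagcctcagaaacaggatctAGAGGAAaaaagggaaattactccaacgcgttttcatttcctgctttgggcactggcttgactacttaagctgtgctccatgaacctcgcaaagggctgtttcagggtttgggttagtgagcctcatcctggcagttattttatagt
Mrc1: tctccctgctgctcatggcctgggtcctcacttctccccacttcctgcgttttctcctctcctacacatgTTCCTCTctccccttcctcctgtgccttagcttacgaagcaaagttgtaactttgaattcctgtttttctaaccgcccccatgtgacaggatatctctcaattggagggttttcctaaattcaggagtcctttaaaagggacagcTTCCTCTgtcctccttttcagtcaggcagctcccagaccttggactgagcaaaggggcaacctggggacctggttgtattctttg
The C/EBP motif TTGCNNAA, searched like all others on both strands, was found in 10.8% of 32851 promoters and, of the 6 genes, in Clec4e, starting 66 bases before the start. The STAT6 motif (TTC and GAA with 4 bases between, 6.95% of promoters) lay in Clec7a from 131 bases and in Clec5a from 98 bases before the start. The interferon response element (GAAA repeated after 2 bases, 3.44%) matched in Clec4d at the start site itself, overlapping a match to the PU.1 motif AGAGGAA. All 6 promoters held AGAGGAA, against 10.4% of all promoters. The start listed for Mgl2 lies inside the span RefSeq gives the gene, so its window may be that of an internal start. No match was found in these 6 windows to the NF-kB motif (GGG and TTTCC with 2 bases between, 1.63%), the AP-1 motif TGANTCA (7.81%) or the GAS motif TTCNNNGAA (8.30%). Other NF-kB forms did match: GGAAATTC (0.877% of promoters) in Clec4e and the loose form of GGG and CC with 5 bases between (50.8%) in Mrc1 and Mgl2. The 7 motifs were kept after the same promoters had been searched for 24 patterns, so the shares are descriptions. A match is not a binding site, and a missing match says only that the letters are not in this window.

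Of the 56 changes, 8 genes under 7 stimuli, 17 passed the 2-fold rule as higher and 7 as lower than untreated. After IFNg, 4 of the 8 genes were higher (Clec4e, Clec4n, Clec7a and Clec5a) and 0 lower, where 10.7% of all genes tested were higher and 12.7% lower. After IL4, 3 were higher (Clec7a, Mgl2 and Mrc1) and 1 lower (Clec4e), beside 9.86% and 11.9% of all genes. TNFa gave 3 higher (Clec4e, Clec4d and Clec5a) and 1 lower (Clec10a), beside 8.92% and 10.4%. TGFb1 gave 1 higher (Clec5a) and 1 lower (Clec10a), beside 7.15% and 9.15%. In IL1b 2 were higher and 1 lower (7.29% and 8.57% of all genes), and in MALP2 also 2 and 1 (9.53% and 11.7%). The higher genes were Clec4e and Clec5a, and the lower was Clec10a, in both. CpG gave the same 2 higher genes and 2 lower, Clec10a and Mrc1, beside 9.43% and 11.2%. The median log2 change of the 8 genes was 1.41 in IFNg and 0.65 in TNFa and lay between -0.09 and 0.35 in the other 5, while that of all genes tested lay between -0.12 and -0.08. Of these 24 changes 19 were called significant in the authors' deposited table, and the same 19 had bounds that did not overlap.

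Under the stricter rules the counts of members stood beside smaller backgrounds. For each stimulus the shares of all genes tested that follow are those at least 2-fold changed and called by the authors, then those at least 2-fold changed with bounds that do not overlap. IFNg had 4 members higher and 0 lower by both rules, beside 7.56% and 8.37% of genes called by the authors as higher and lower, and 6.1% and 6.79% with bounds apart. IL4 had 3 higher and 0 lower, beside 6.79% and 8.14%, and 5.59% and 6.57%. TNFa had 2 higher (Clec4e and Clec5a) and 1 lower, beside 6.4% and 7.18%, and 5.31% and 6%. TGFb1 had 0 higher and 1 lower, beside 5.09% and 6.58%, and 4.43% and 5.71%. IL1b had 2 higher and 1 lower, beside 5.33% and 6.59%, and 4.61% and 5.67%. MALP2 also had 2 and 1, beside 6.34% and 8%, and 5.05% and 6.71%. CpG had 1 higher (Clec4e) and 1 lower (Clec10a), beside 6.6% and 7.75%, and 5.44% and 6.37%.

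Against the median of the other 6 stimulated libraries, the members that set a stimulus apart differed from those that set it apart from no treatment. In IL4, 4 were at least 2-fold higher (Clec7a, Clec10a, Mgl2 and Mrc1) and 3 lower (Clec4e, Clec4d and Clec5a), beside 4.88% and 5.87% of all genes tested this way. In IFNg, 4 were higher (Clec4n, Clec7a, Clec10a and Mrc1) and 1 lower (Clec4e), beside 7.72% and 3.5%. Clec10a was thus at least 2-fold above the median of the other 6 stimulated libraries in both, while within 2-fold of its untreated level. In TNFa 2 were higher (Clec4e and Clec5a) and 0 lower, beside 1.6% and 0.837%. In TGFb1 0 were higher and 1 lower (Clec4e), beside 3.54% and 4.03%. In IL1b 0 passed in either direction, beside 1.24% higher and 1.12% lower. In MALP2 1 was higher (Clec4e) and 1 lower (Clec7a), beside 3.24% and 1.5%, and in CpG 1 was higher (Clec4e) and 0 lower, beside 3.65% and 0.837%.

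**Figure D1:**
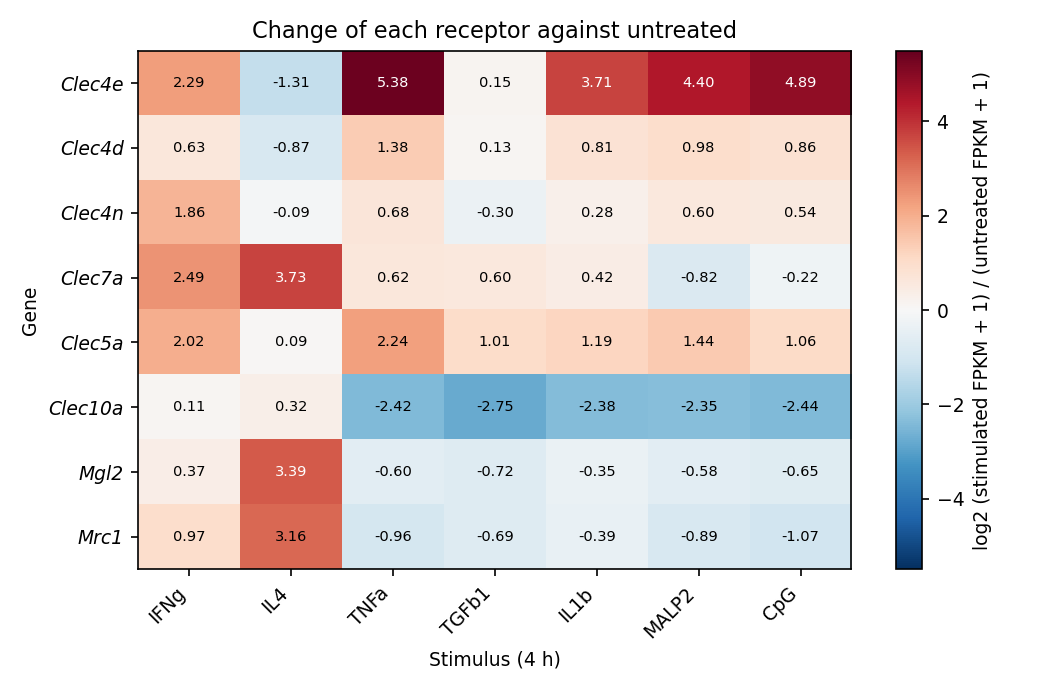
Log2 change of each of the 8 receptor genes (rows) against the untreated library for each stimulus (columns), with the value printed in each cell and red for higher. Clec4e is high in 5 columns, Clec7a, Mgl2 and Mrc1 in the IL4 column, and Clec10a is low in the last 5.

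Clec4e, which binds the mycobacterial glycolipid cord factor, had the widest range of the 8. Its level was 22.6 FPKM untreated, 114 in IFNg, 8.53 in IL4, 979.9 in TNFa, 25.2 in TGFb1, 308 in IL1b, 496 in MALP2 and 699 in CpG. The 4 libraries treated with TNFa, IL1b or a TLR ligand stood highest, IFNg lay between them and the untreated level, and TGFb1 was near it. The change was 41.6-fold higher in TNFa (979.9 [337 to 1623] against 22.6 [9.91 to 35.2] FPKM), 29.7-fold in CpG, 21.1-fold in MALP2, 13.1-fold in IL1b and 4.88-fold in IFNg. The bounds of the stimulated and the untreated library did not overlap in any of these 5, and the authors' deposited table called all 5. IL4 was the only stimulus with less, 2.48-fold lower at 8.87 [3.59 to 14.2] against 23.5 [9.88 to 37.1] FPKM, where the bounds overlapped and the authors' deposited table gave q = 0.0897 and no call. Against the median of the other 6 stimulated libraries, in place of the untreated one, IFNg turned from higher to lower (log2 change -1.81). TGFb1, near the untreated level, came to -3.94 on that reference.

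Clec4d, which forms complexes with the Clec4e protein and also recognises cord factor, was abundant before stimulation and moved little. It had 229 FPKM untreated, 356 in IFNg, 125 in IL4, 597 in TNFa, 250.4 in TGFb1, 403 in IL1b, 453 in MALP2 and 416 in CpG. Only TNFa passed the 2-fold rule (2.60-fold higher), and there too the bounds overlapped and the authors' deposited table gave q = 0.103. MALP2 came next at a log2 change of 0.98, just under the rule. No change of this gene was called in the authors' deposited table. The order of the libraries was much like that of Clec4e, from TNFa at the top to untreated and IL4 at the bottom, but over a 4.78-fold range of FPKM where Clec4e had a 115-fold range.

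The balance between these partners therefore differed by library. Clec4e had 0.0985 times the FPKM of Clec4d untreated, 0.100 in TGFb1, 0.0682 in IL4, 0.321 in IFNg and 0.765 in IL1b. The ratio was 1.09 in MALP2, 1.64 in TNFa and 1.68 in CpG. In these libraries, and in IFNg and IL1b, the bounds of the 2 genes overlapped, so which was higher is not settled. In the untreated, TGFb1 and IL4 libraries the bounds of Clec4e lay below those of Clec4d. These ratios are taken within a library, so the joining of tables does not touch them. They were chosen after the values had been seen.

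Clec4n, a receptor for fungal mannans, stood apart from both through IFNg. Its level was 102 FPKM untreated, 375 in IFNg, 96.2 in IL4, 164 in TNFa, 83.0 in TGFb1, 125 in IL1b, 156 in MALP2 and 149.5 in CpG. The IFNg library was highest, 3.63-fold above the untreated one (354 [206 to 502] against 96.7 [59.8 to 134] FPKM), with bounds apart and a call in the authors' deposited table (q = 9.18e-05). The other 6 changes lay between -0.30 and 0.68 on the log2 scale, and none was called. The ratio of Clec4n to Clec4d in FPKM was 1.05 in IFNg and 0.275 to 0.769 in the other 7 libraries. The bounds of Clec4n lay below those of Clec4d in TNFa, TGFb1 and IL1b and overlapped them in all other libraries, IFNg among them.

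Clec7a, the receptor for fungal beta-glucans, was highest in IL4 and next in IFNg. It had 21.9 FPKM untreated, 128 in IFNg, 302 in IL4, 34.3 in TNFa, 33.7 in TGFb1, 29.6 in IL1b, 12.02 in MALP2 and 18.7 in CpG. IL4 was 13.2-fold higher (314 [122 to 507] against 22.8 [9.57 to 36.05] FPKM) and IFNg 5.62-fold (121 [42.2 to 200] against 20.7 [7.71 to 33.7] FPKM). Both had bounds apart and were called in the authors' deposited table. The other 5 changes lay between -0.82 (MALP2) and 0.62 (TNFa) and none was called. In the joined levels the bounds of IL4 and IFNg overlapped, so their order is not settled.

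Clec5a, which pairs with Tyrobp and is known for binding flaviviruses, was above the untreated level in all 7 stimulated libraries and passed the rule in 6. Its level was 8.87 FPKM untreated, 39.1 in IFNg, 9.48 in IL4, 45.7 in TNFa, 18.8 in TGFb1, 21.5 in IL1b, 25.9 in MALP2 and 19.6 in CpG. TNFa (4.73-fold) and IFNg (4.05-fold) were highest, and IL4 was at the untreated level (log2 change 0.09). MALP2 was 2.72-fold and IL1b 2.28-fold higher. These 4 had bounds apart and were called in the authors' deposited table. CpG (2.09-fold) and TGFb1 (2.01-fold) passed the rule narrowly, with overlapping bounds and q = 0.101 and q = 0.0554 in the authors' deposited table, neither called. Against the median of the other 6 stimulated libraries, the log2 change turned negative in IL4 (-1.24), TGFb1 (-0.32), CpG (-0.26) and IL1b (-0.08). Clec5a was the only member past the rule in the higher direction after TGFb1.

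**Figure D2:**
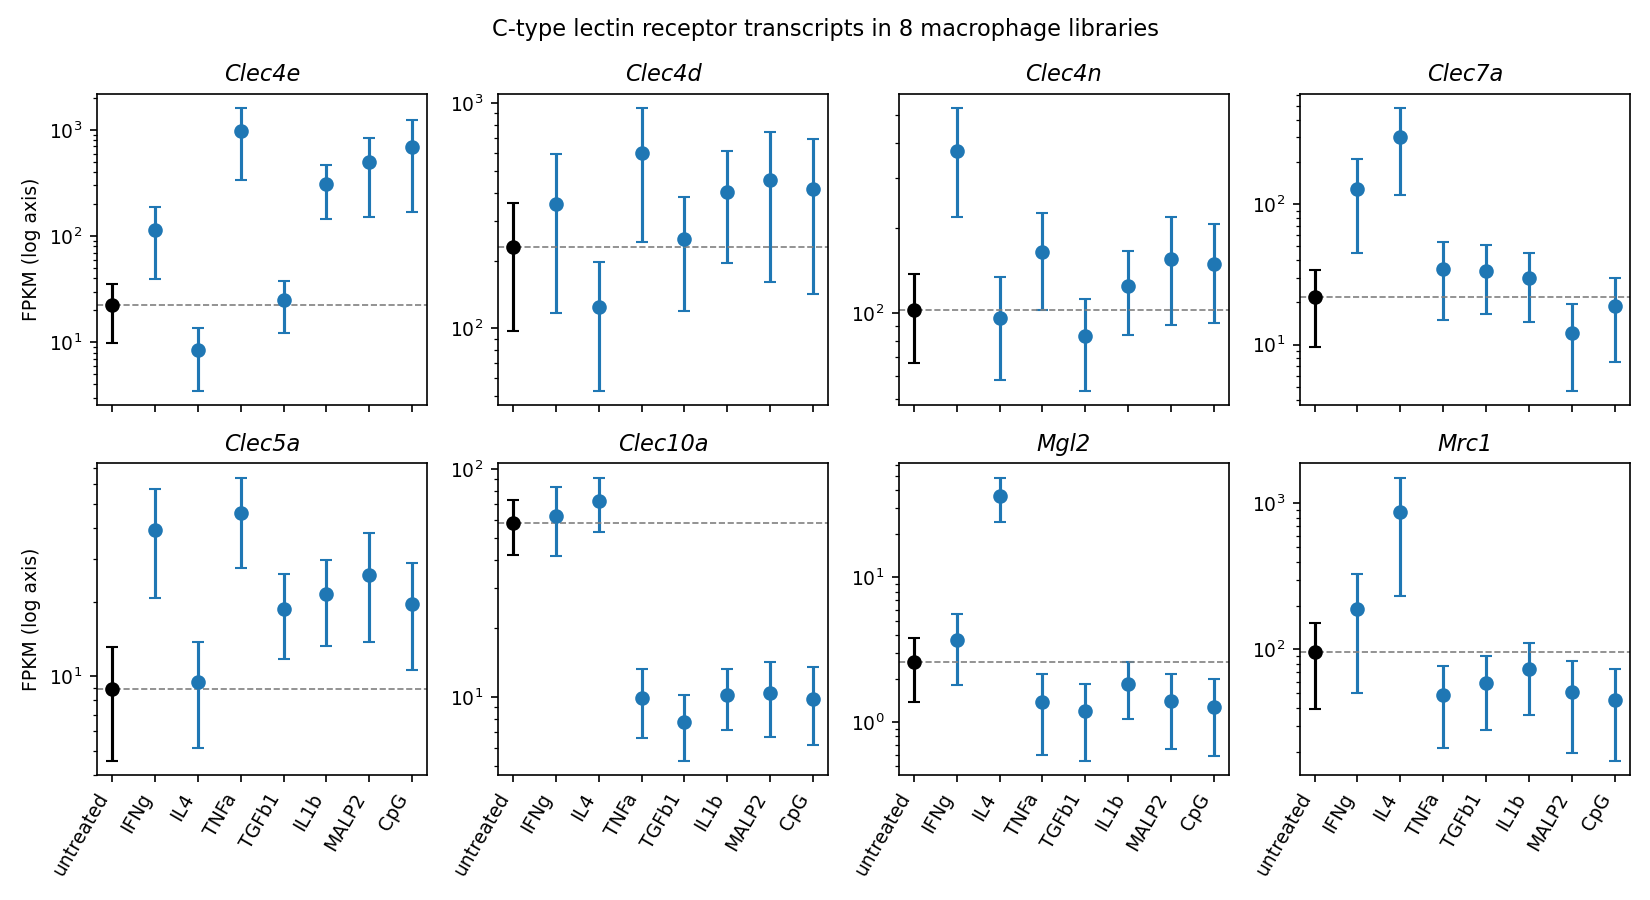
FPKM (log axis, a different range in each panel) of the 8 receptor genes in the untreated library (black) and the 7 stimulated ones (blue), joined across tables. Bars are the authors' confidence bounds, those of the untreated library from the TNFa table, and the dashed line is the untreated level. The 5 lowest Clec10a points lie between 7.73 and 10.5 FPKM.

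Among the endocytic receptors, Clec10a, a lectin for galactose-type sugars, split the libraries into 3 at its untreated level and 5 far below. It had 57.7 FPKM untreated, 62.4 in IFNg and 72.3 in IL4, against 9.93 in TNFa, 7.73 in TGFb1, 10.2 in IL1b, 10.5 in MALP2 and 9.83 in CpG. The fold lower was 6.74 in TGFb1, 5.37 in TNFa, 5.41 in CpG, 5.22 in IL1b and 5.11 in MALP2. In each of these 5 the bounds lay below those of the untreated library, as in TGFb1 with 7.96 [5.38 to 10.5] against 59.4 [44.4 to 74.4] FPKM, and each was called in the authors' deposited table. The bounds of the 5 overlapped each other. IL4 (log2 change 0.32) and IFNg (0.11) were not called.

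Mgl2, the closest relative of Clec10a and its neighbour on chromosome 11, was low in every library but IL4. It had 2.61 FPKM untreated, 3.69 in IFNg, 36.4 in IL4, 1.38 in TNFa, 1.196 in TGFb1, 1.83 in IL1b, 1.40 in MALP2 and 1.28 in CpG. IL4 was 10.5-fold higher (37.9 [24.98 to 50.8] against 2.71 [1.36 to 4.06] FPKM), with bounds apart and a call in the authors' deposited table. The 5 stimuli under which Clec10a was lower gave Mgl2 log2 changes between -0.72 and -0.35, none of them past the rule or called. At these levels the result leans on the value added before the log: with 0.1 in place of 1, TGFb1 came to -1.06 and passed the rule.

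Clec10a and Mgl2 can share reads. Of the 36-base stretches in the GENCODE transcripts of Clec10a, 12.1% also occur in Mgl2, and 17.2% of those of Mgl2 occur in Clec10a. How such reads were assigned is not given in the sources used here. Clec10a exceeded Mgl2 22.1 times untreated, 16.9 times in IFNg, 5.60 to 7.65 times in TNFa, TGFb1, IL1b, MALP2 and CpG, and 1.99 times in IL4. No other 2 of the 8 genes shared a 36-base stretch. The read length is not given in the sources used here, and 36 was chosen for this check.

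Mrc1, the mannose receptor, was the most abundant of the 8 in the IL4 library. Its level was 96.0 FPKM untreated, 189 in IFNg, 867 in IL4, 48.8 in TNFa, 59.2 in TGFb1, 73.0 in IL1b, 51.5 in MALP2 and 45.3 in CpG. IL4 was 8.95-fold higher (902 [242 to 1561] against 99.9 [39.5 to 160.2] FPKM), with bounds apart and a call in the authors' deposited table (q = 7.51e-05). IFNg fell just short of the rule (log2 change 0.97), and the remaining 5 were all below untreated (-0.39 to -1.07). Of those only CpG passed the rule, 2.09-fold lower, with overlapping bounds and q = 0.302 in the authors' deposited table. With changes centred on the median gene, which itself stood at -0.10 in CpG, the value was -0.96 and no longer passed. The microRNA gene Mir511 lies within the Mrc1 locus in the deposited annotation, and strandedness is not given in the sources used here.

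Set in order of level, neighbouring libraries could rarely be separated. Over the 8 genes there are 56 steps from a library to the next lower one, and the bounds did not overlap in 3 of them. These were IFNg over TGFb1 for Clec4e, untreated over MALP2 for Clec10a, and IL4 over IFNg for Mgl2. The bounds describe estimation within a library, not the spread between cultures.

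The make-up of the group changed more than its sum. The 8 genes together had 541 FPKM untreated, 479 in TGFb1, 972 in IL1b, 1206 in MALP2, 1268 in IFNg, 1360 in CpG, 1517 in IL4 and 1881 in TNFa. Clec4d led in the untreated (42.3% of the sum), TGFb1 (52.2%) and IL1b (41.4%) libraries. Clec4e led in TNFa (52.1%), CpG (51.4%) and MALP2 (41.1%). Mrc1 made up 57.1% in IL4, while in IFNg Clec4n (29.6%) and Clec4d (28.1%) were close. In every library but TGFb1 the bounds of the leading gene overlapped those of the next, so these leads are estimates.

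**Figure D3:**
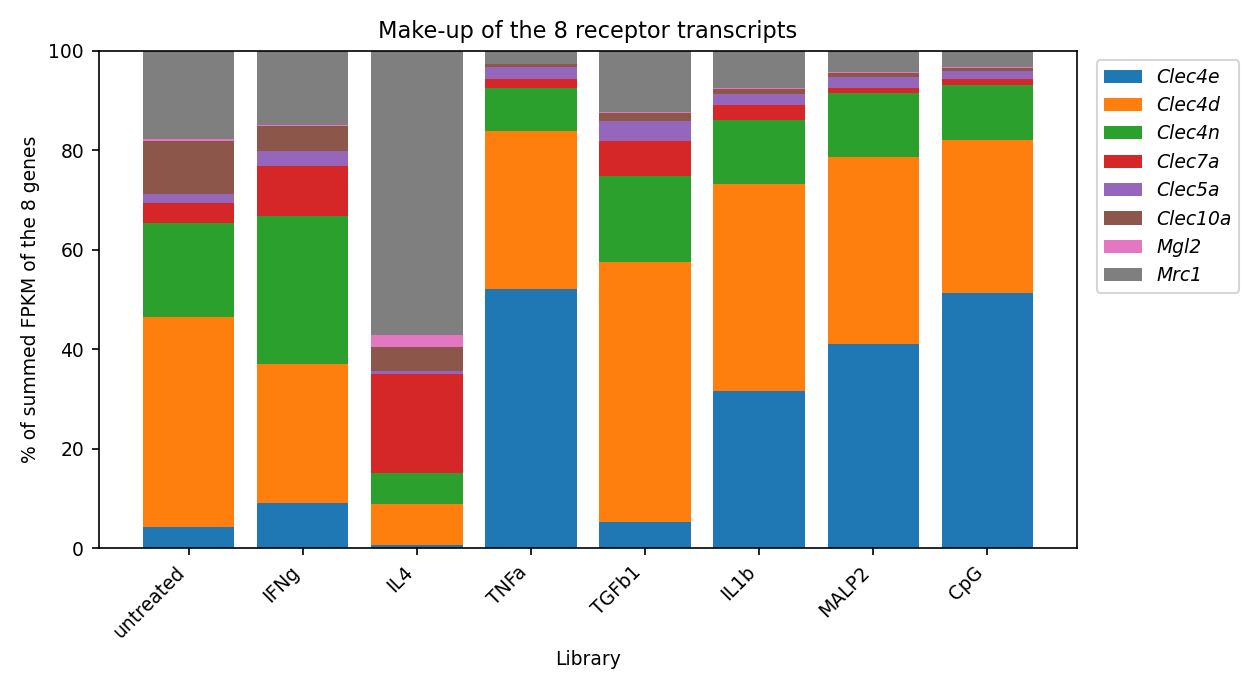
Share of the summed FPKM of the 8 receptor genes (y axis, %) held by each gene in each library (x axis). The Clec4e share goes from 4.17% untreated to 52.1% in TNFa, and Mrc1 holds 57.1% in IL4.

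Over the 8 libraries Mgl2 and Mrc1 had Pearson r = 0.97 in log2(FPKM + 1), Clec7a and Mrc1 0.92, and Clec4e and Clec4d 0.95. Clec4d and Mrc1 had r = -0.80. These are descriptions over 8 points that share 1 kind of culture and 1 untreated library.

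The levels were set beside those of 3 wider lists. Of 44 other C-type lectin receptor genes, 21 stayed below 1 FPKM in all 8 libraries and 15 passed the 2-fold rule somewhere. The share of all genes that passed under at least 1 stimulus was not computed. IFNg gave 7 higher and 3 lower of 21 tested, beside 10.7% and 12.7% of all genes, with a median log2 change of -0.09 (all genes -0.11). IL4 gave 2 higher and 7 lower of 18, beside 9.86% and 11.9%, with a median of -0.92 (all genes -0.11). The medians in TNFa, TGFb1 and IL1b were -0.66, -0.67 and -0.47, and those in MALP2 and CpG 0.14 and 0.03. Olr1, a receptor for oxidised LDL, had 0.0341 FPKM untreated and 1.94 to 61.2 stimulated, lowest in IL4 and highest in TNFa. Cd69, an early activation antigen, had 0.502 untreated and 67.4 in IFNg, and between 0.383 and 8.94 in the other 6. Cd207, known as langerin of Langerhans cells, had 0.0438 untreated, 32.4 in IFNg, 8.49 in TGFb1, 5.96 in IL4 and 3.55 in IL1b. With 1.63 in TNFa, 1.33 in CpG and 0.520 in MALP2, it passed the rule under all stimuli but MALP2. Selp, the adhesion molecule P-selectin, had 0.0509 untreated and 33.4 in IFNg, in a locus that overlaps F5 and 3 other genes in the deposited annotation. It also passed the rule as higher in MALP2 (1.57) and CpG (1.67). Clec4a1 and Clec4a3, in the same cluster as Clec4e, were lowest in TGFb1 (log2 changes -2.68 and -2.40).

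On chromosome 6 (mm9) the genes of 2 lectin clusters lie side by side, in windows of 600000 bases on either side of Clec4e and Clec7a that were set after the values had been seen. Clec4n (123179861 to 123197039), Clec4d (123212125 to 123225286) and Clec4e (123231807 to 123239889) end a row of Clec4 genes. In TNFa the log2 changes along the row were -1.26 for Clec4a1, -2.15 for Clec4a3, -0.61 for Clec4a4, -1.27 for Clec4b1, -0.40 for Clec4a2 and -0.77 for Clec4b2, then 0.68 for Clec4n, 1.38 for Clec4d and 5.38 for Clec4e. In IL4 no Clec4 gene of the row was above its untreated level (-0.09 to -2.03). Clec7a (129411611 to 129422790) lies next to Olr1 on 1 side and, on the other, to a merged locus that the files give for Clec9a, Clec1a and Clec1b together. Clec7a was highest in IL4 (3.73) and Olr1 lowest there (1.55), while in CpG the values were -0.22 and 5.48. Clec5a (40524897 to 40535804) is on the same chromosome, Mgl2 (69943831 to 69951052) and Clec10a (69980125 to 69984336) are on chromosome 11, and Mrc1 (14151041 to 14253684) is on chromosome 2. None of the 8 but Mrc1 overlaps another gene in the deposited tables.

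**Figure D4:**
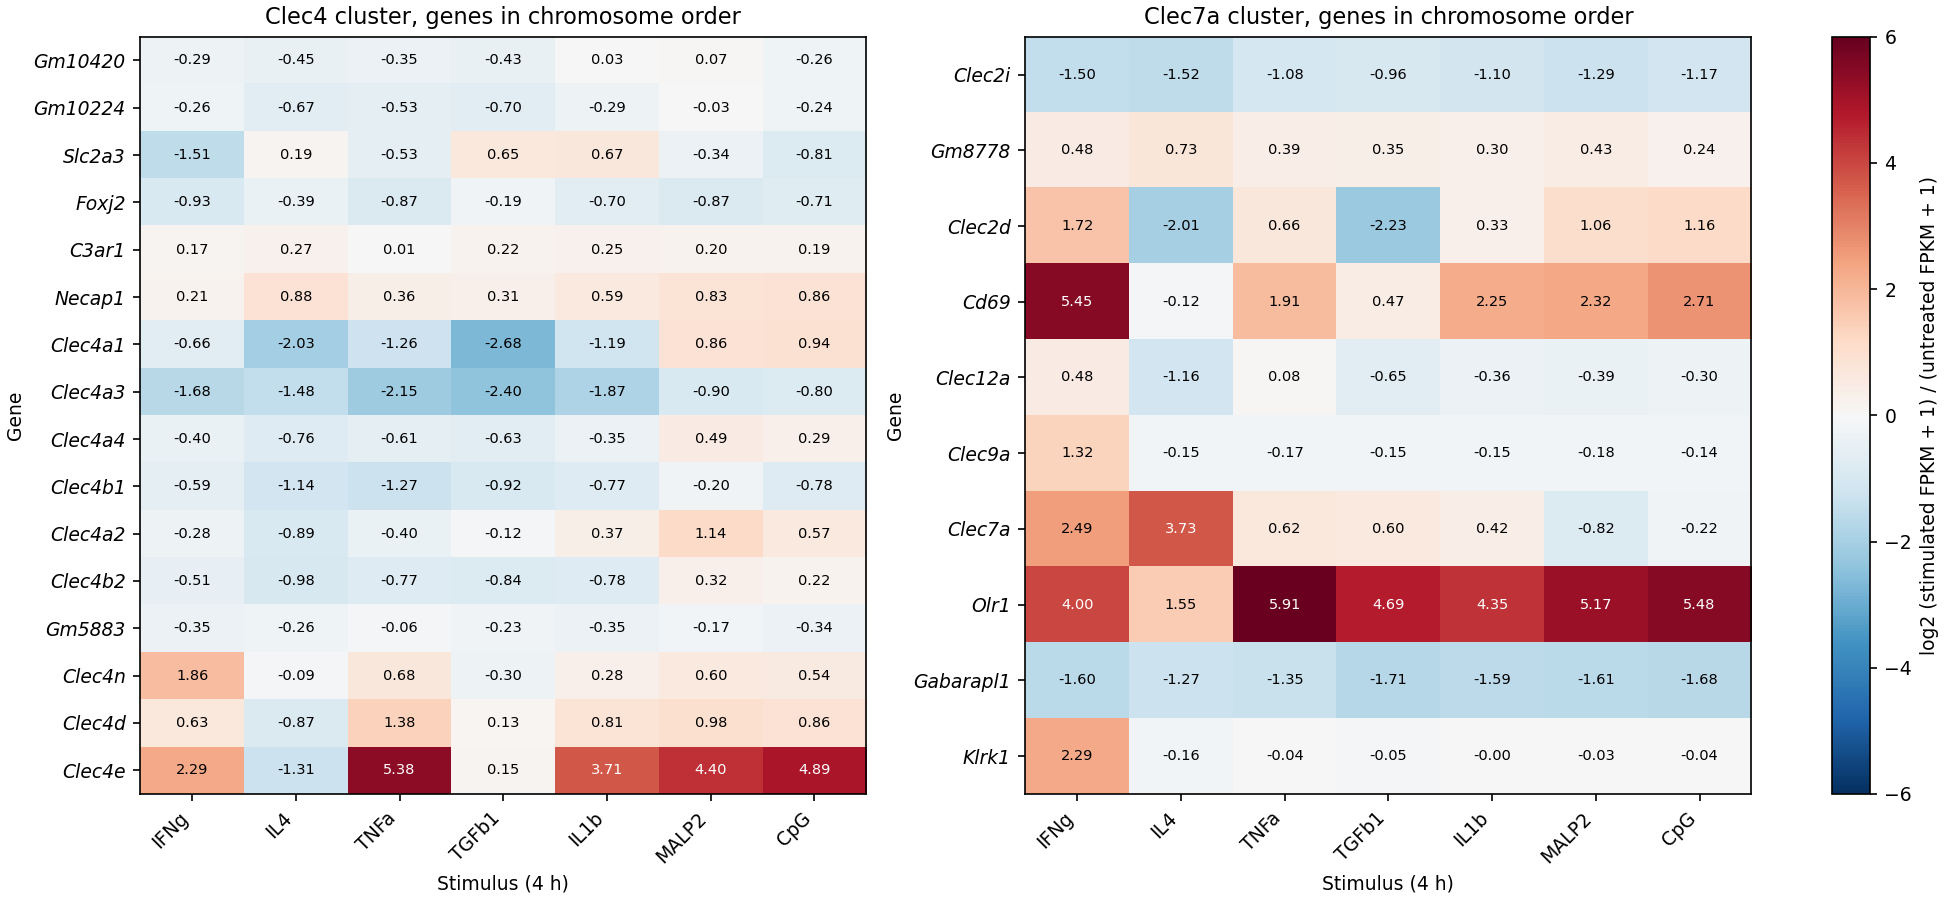
Log2 change against untreated (cell values and colour) for each stimulus (columns) of the symbol-bearing genes around Clec4e (left) and Clec7a (right), in chromosome order; genes at or above 1 FPKM in some library are shown. The Clec4e row reaches 5.38 in TNFa, while Clec4a1 and Clec4a3 are lower in TGFb1 (-2.68 and -2.40).

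Of 31 genes that signal below the receptors, 19 passed the rule under at least 1 stimulus, a share not computed over all genes. The adaptors Fcer1g (1650 FPKM untreated, 1154 to 1880 stimulated) and Tyrobp (2320 untreated, 1599 to 2426 stimulated) passed the rule under no stimulus. In each library the FPKM of both stood above that of every one of the 8 receptors. The upper bounds of Clec4e in TNFa (1623) and Mrc1 in IL4 (1501) exceeded the Fcer1g level there (1427 and 1154), so that order is not settled. Over the list, IFNg gave 6 higher and 4 lower, IL4 2 and 7, TNFa 4 and 7, TGFb1 1 and 4 of 29 tested, IL1b 3 and 5 of 30, MALP2 5 and 6, and CpG 5 and 6 of 30. Per stimulus, 7.15% to 10.7% of all genes tested were higher and 8.57% to 12.7% lower. The medians of the list lay between -0.20 and 0.06 (all genes -0.12 to -0.08).

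Syk, the kinase all of the activating receptors use, had 139 FPKM untreated and was lowest in IL4 at 41.5 (log2 change -1.73), the only stimulus under which it passed the rule. Card9, whose locus overlaps 2 other genes in the deposited annotation, had 35.8 untreated and passed in IFNg alone, lower at 14.0 (-1.29). The authors did not call that change, and the TGFb1 value of Card9 had a failed status and was not tested. Bcl10 passed in IL4 alone, with 26.0 against 55.1 FPKM (-1.06), also without a call by the authors. Malt1, the protease partner of both, had 4.36 untreated, 35.1 in TNFa, 32.1 in CpG and 19.6 in MALP2 (2.75, 2.62 and 1.94), and 4.76 in IL4. It also passed the rule as higher in IFNg (13.4, not called by the authors) and IL1b (12.8), and had 5.06 in TGFb1. The Src-family kinases, which phosphorylate the tyrosine motifs, included the largest changes of the list. Src was highest in CpG (41.0 against 1.59 untreated) and Fgr in MALP2 (56.0 against 3.05). Pik3cd, a PI3-kinase subunit, was lowest in TGFb1 (17.4 against 74.0), and the transcription factor Nfatc1 in MALP2 (7.04 against 27.8).

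Of 14 transcription factors known to act on these receptors or on macrophage polarisation, 4 were higher in IFNg, 4 in IL4, 4 in TNFa, 3 in TGFb1, 3 in IL1b, 5 in MALP2 and 6 in CpG, and 1 to 3 were lower. The number tested was 12 in IL4 and 13 under each other stimulus. Among all genes tested, 7.15% to 10.7% were higher and 8.57% to 12.7% lower, by stimulus. Cebpb, a known activator of Clec4e, lies in a locus that overlaps 7 other genes in the deposited annotation, and had 19.3 FPKM untreated, 88.0 in IFNg, 20.1 in IL4, 83.6 in TNFa, 48.8 in TGFb1, 75.9 in IL1b, 133 in MALP2 and 151 in CpG. It was 2-fold or more above untreated in 6 libraries, TGFb1 among them, where Clec4e was not. The authors did not call the TGFb1 change of Cebpb. Stat6, which carries the IL4 signal and whose locus overlaps 4 other genes, passed under no stimulus (log2 changes -0.97 to -0.18). The IL4-linked factors Irf4 (10.4 against 1.73 FPKM) and Klf4 (16.6 against 4.99) were higher in IL4 alone among the 7. Egr2 had 71.3 FPKM in IL4 and 5.83 untreated, but its IL4 value had a failed status and was not tested. Pparg, another factor linked to this programme, was lower in all 7 (log2 changes -2.57 to -1.10), though not called by the authors in IL4 and CpG.

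**Figure D5:**
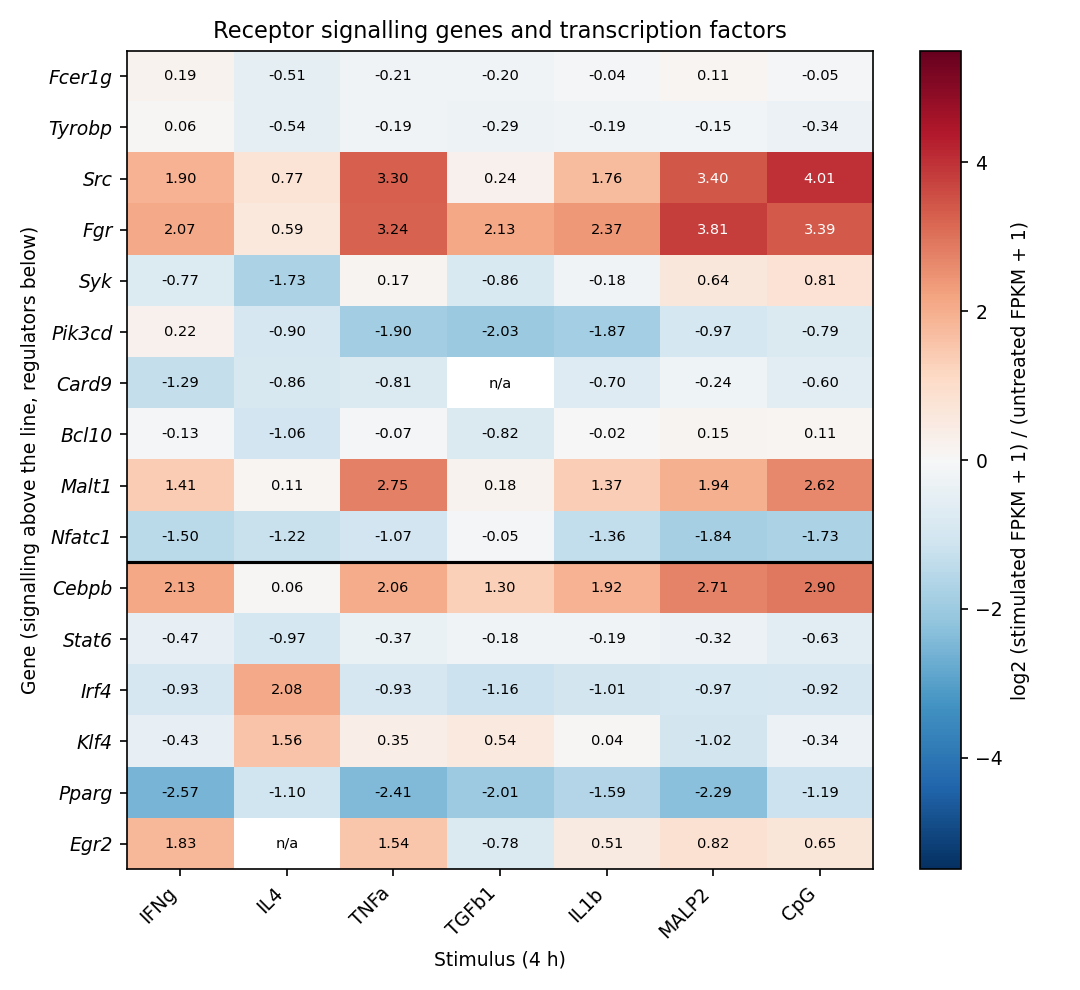
Log2 change against untreated (cell values and colour) of 10 signalling genes (above the line) and 6 transcription factors (below) for each stimulus (columns); n/a marks a failed status. Syk is lowest in IL4 (-1.73), where Irf4 reaches 2.08.

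Several properties of the libraries bear on these values. IFNg was the shallowest library: judged by the steps between low values, a single read stood for 2.04 times more FPKM there than untreated, and for 1.04 to 1.44 times in the other 6. Absolute depth is unknown. Of 10 macrophage markers, 9 summed to 5348 FPKM untreated and 4191 to 7091 stimulated; Lyz2 had no OK status and was left out. Within this sum Mertk had 23.1 FPKM untreated and 1.71 in TNFa, 4.56 in IL1b, 1.18 in MALP2 and 1.80 in CpG, 4 of the 5 libraries where Clec10a was lower, and 19.8 in TGFb1, the fifth. Mertk was also lower by the rule in IFNg (9.76, not called by the authors), where Clec10a stood at its untreated level, and had 17.2 in IL4. Cd14 had 425 untreated and 1453 to 2324 in TNFa, IL1b, MALP2 and CpG. Of 8 dendritic cell markers, Flt3, Zbtb46, Xcr1, Dpp4 and Siglech were below 1 FPKM in all libraries. The sum was 20.8 untreated, mostly Cd24a (16.7), and 20.3 to 32.9 stimulated. Itgax had 2.096 FPKM untreated and was highest in IFNg (9.58). It passed the rule as higher in IFNg, IL4, TNFa, MALP2 and CpG, each called in the authors' deposited table. Ccr7 was above 1 FPKM in TNFa (1.86), MALP2 (1.76) and CpG (1.56) but passed the rule under no stimulus. All 9 lymphoid and 6 mast cell or basophil markers stayed below 1 FPKM. The 13 neutrophil markers summed to 311 FPKM untreated, 195 in IL4, 232 to 292 in TNFa, TGFb1 and IL1b, 356 in CpG, 416 in MALP2 and 459 in IFNg, mostly S100a8 (119 untreated, 71.8 in IL4, 197 in IFNg) and S100a9 (105, 65.2 and 161). As single genes, 1 of 11 tested was higher in IFNg (Ly6g) with a median log2 change of -0.03, and 5 of 13 were lower in IL4 with a median of -0.73. Among all genes tested, 10.7% were higher in IFNg and 11.9% lower in IL4. The 8 stromal markers summed to 41.8 untreated, 88.2 in IFNg and 41.1 to 48.5 in the rest. The neutrophil and stromal sums were thus highest in IFNg, where Clec4n, Clec7a, Clec5a and Clec4e were also higher, and the neutrophil sum lowest in IL4, where Clec4e was lower. The part of these markers in those results was not tested. In these bulk samples fewer cells of a type and less RNA per cell cannot be told apart.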

How the data were processed

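Poly(A) RNA-seq of 8 libraries was used, 1 per group as labelled. Per the submitters' processing notes, reads were processed with TopHat 1.3.1, Cufflinks 1.2.1 and Cuffdiff 1.2.1 on mm9. Options, depth, read length and strandedness: not given in the sources used here. The authors deposited FPKM with confidence bounds per stimulus and, in a second table, a q-value and call per gene, per the file headers. Genes without an OK status in both libraries of a table (336 to 388 of 36806) were left out, and 31840 identifiers had a symbol in GENCODE release 21 for mouse. The 14 value columns of the second tables repeat sample values under unnamed headers and were not used. Coordinates are mm9 as deposited, counted from 1; promoters are RefSeq's, on GRCm38.p6.

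Calls used a pseudocount of 1, a floor of 1 FPKM and a 2-fold change; the counting script was tested on simulated data. As alternatives, the pseudocount was set to 0.1, the floor to 5 FPKM or none, and the rest were centring, the authors' call, bounds apart, and the other 6 stimulated libraries as reference. The members and lists were chosen with earlier results of these data known. Named were all members, the 6 other lectin and 6 signalling genes with the largest changes past the rule, fixed signalling genes (Fcer1g, Tyrobp, Syk, Card9, Bcl10, Malt1) and regulators (Cebpb, Stat6, Irf4, Klf4, Pparg, Egr2), and the 2 genes with a symbol most correlated with each member among those at 5 FPKM or more. One gene that this rule names is not reported here. Other genes of the clusters and the markers were named after their values were seen. Python 3.11.15, numpy 2.4.6, pandas 2.3.3 and matplotlib 3.10.9 were used.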

Additional observations from a re-analysis of the deposited data

How the results depend on the processing

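A floor of 5 FPKM, or none, changed no count of the 8 genes. Each of the 8 reached 1 FPKM in every comparison, so removing the floor could change none of their counts. The floor of 5 could drop only Mgl2 outside IL4, where it had not passed the rule. Over all stimuli and both directions, passes on the list of other lectin receptors went from 27 higher and 28 lower to 19 and 20 with the floor of 5, and to 27 higher and 53 lower with a pseudocount of 0.1, while those of the signalling list (65) and the regulators (41) stayed between 58 and 69 and between 38 and 46. Of 110 recomputed counts 91 were equal or stayed within 1.5 times, list counts being taken over both directions. Of 168 recomputed changes of the 8 genes 143 kept their side of the 2-fold rule, and those past it kept their direction. Changes short of the rule in both settings were among the 143 whatever their sign. Clec4d in IFNg, at 0.63 and at -0.20 against the other 6 stimulated libraries, is an example. The 91 include the counts of the 8 genes under the changed floors. A kept count can hold other genes: against the other 6 libraries, IFNg had Clec10a and Mrc1 as higher in place of Clec4e and Clec5a. With a pseudocount of 0.1, 2 members were lower in TGFb1 (Clec10a and Mgl2, against 1). Centring on the median gene left 1 lower in CpG (Clec10a) in place of 2. Requiring the authors' call, or bounds that do not overlap, left 0 lower in IL4, 0 higher in TGFb1, 1 higher in CpG (Clec4e) and 1 lower in CpG (Clec10a). Measured from the median of the other 6 stimulated cultures, a different question, 1 member was lower in IFNg (Clec4e), 3 lower in IL4 (Clec4e, Clec4d and Clec5a), 0 lower in TNFa, 0 higher in TGFb1, 0 higher and 0 lower in IL1b, 1 higher in MALP2, and 1 higher and 0 lower in CpG. Among changes past the rule against untreated, the log2 change then turned to -1.81 for Clec4e in IFNg. It turned to -0.32, -0.0765 and -0.26 for Clec5a in TGFb1, IL1b and CpG, and to 0.0067 and 0.0468 for Clec10a in IL1b and MALP2. Of changes short of the rule, 2 passed it in the opposite direction, Clec4e in TGFb1 (-3.94) and Clec5a in IL4 (-1.24). Some others short of the rule changed sign without passing it. The cause was not tested. No paired analysis was possible because each group holds 1 library. With no counts deposited, the depth behind a value is unknown.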

Other observations

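The genes whose levels followed each receptor most closely over the 8 libraries were sought among 10085 genes with a symbol that reached 5 FPKM in some library, by Pearson r of log2(FPKM + 1). The 8 points share 1 untreated library and 1 kind of culture, the values rest on joined tables, and the highest r of so many genes is a description. Clec4e was followed by Sap30 (r = 0.99; 15.7 FPKM untreated, 39.3 in TNFa, 13.2 in IL4) and Ptpn12 (0.98). Sap30 spanned a far smaller range than Clec4e. Clec4d was followed by Ino80c (0.97) and Zdhhc18 (0.97), Clec5a by Vps37b (0.96) and Ltbp2 (0.96), and Clec10a by Scamp2 (0.96) and Anks1 (0.96). Clec4n was followed by Slamf8 (0.99), which had 4.79 FPKM untreated and 331 in IFNg, a wider range than that of Clec4n, and by Tpst1 (0.98).

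The receptors that were highest in IL4 had different closest genes. Mgl2 was followed by Smap2 (r = 0.99; 44.6 FPKM untreated and 255 in IL4) and Slc39a6 (0.98), and Mrc1 by Snx2 (0.99; 58.1 FPKM untreated, 123 in IFNg and 337 in IL4) and Gm12543 (0.98). Clec7a was followed by Dhrs9 (0.97; 3.70 FPKM untreated, 13.8 in IFNg and 35.9 in IL4) and Cd164 (0.97; 17.6, 86.9 and 136).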
